A study of Mus musculus with 416 samples.

Results

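The comparison described here sets striatum libraries with much Gfap RNA against libraries with little. Members were chosen by the measured Gfap level itself, as the count over the column total of a library (CPM). For other genes, CPM below uses column totals scaled as described under processing. Within each breeding generation the top 0.25 of libraries formed the high group and the bottom 0.25 the low group. Of 416 libraries, each group took 37 of generation 21, 29 of generation 22 and 36 of generation 23. The remaining libraries formed a lower middle group (38, 30 and 37 in the 3 generations) and an upper middle group (38, 31 and 38).

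All mice, in both groups, were drug naïve animals of the J:DO strain, the Diversity Outbred stock, whose animals differ from each other in their genomes. The labels name no engineered allele, transgene or treatment that separates the groups, and age is not given in the sources used here. Genotypes were not examined, so a difference in inherited alleles between the groups was not tested. The striatum was dissected from 1 animal per library, and RNA depleted of ribosomal RNA was sequenced in read pairs. The high group had 48 libraries labelled female and 54 labelled male, against 57 and 45 in the low group. The question is which genes move with Gfap between animals that received no drug. As the groups were set by a measured RNA, every difference below is an association among the same libraries and not the effect of a condition.

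Gfap encodes glial fibrillary acidic protein, the intermediate filament protein of astrocytes. Astrocytes clear glutamate and potassium, cover vessels with their end-feet and, after injury or inflammation, raise Gfap as part of a reactive state. In the rodent forebrain, Gfap is known to be strongest in astrocytes of white matter, the hippocampus, the brain surface and the ventricle wall, while many astrocytes of the striatum carry little of it. In the rodent striatum, white matter runs through the tissue as bundles of myelinated axons, wrapped by oligodendrocytes.

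The sequences below lie directly before the start of Gfap and of 2 myelin genes that were higher in the high group, Cnp and Mog. They are shown because the gene of the oligodendrocyte transcription factor MYRF was also higher there. Each is 250 bases, 5′ to 3′ on the gene's own strand, from RefSeq (GRCm38.p6). Gfap lies at chr11:102897201-102897450 on the minus strand, Cnp at chr11:100574689-100574938 on the plus strand and Mog at chr17:37023399-37023648 on the minus strand. Capitals mark CTGGNAC, the form of the MYRF motif searched here with N as any base, read on both strands.
Gfap: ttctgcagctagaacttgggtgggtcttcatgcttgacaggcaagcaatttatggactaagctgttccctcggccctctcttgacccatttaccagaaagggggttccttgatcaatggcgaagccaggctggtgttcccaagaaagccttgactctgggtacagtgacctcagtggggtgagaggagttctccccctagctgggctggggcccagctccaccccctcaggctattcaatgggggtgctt
Cnp: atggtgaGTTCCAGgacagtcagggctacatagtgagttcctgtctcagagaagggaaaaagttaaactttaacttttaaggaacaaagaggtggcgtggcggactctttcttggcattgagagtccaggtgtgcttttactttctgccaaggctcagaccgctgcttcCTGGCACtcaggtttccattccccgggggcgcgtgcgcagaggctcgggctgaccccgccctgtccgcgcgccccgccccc
Mog: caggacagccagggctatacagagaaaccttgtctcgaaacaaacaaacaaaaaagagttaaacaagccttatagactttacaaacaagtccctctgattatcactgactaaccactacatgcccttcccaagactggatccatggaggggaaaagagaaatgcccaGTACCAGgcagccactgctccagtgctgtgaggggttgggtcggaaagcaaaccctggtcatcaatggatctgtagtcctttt

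The Cnp window held 2 matches, the Mog window 1 and the Gfap window 0. Of 11 myelin list genes found in the promoter table, 4 had the motif in at least 1 window (36.4%), namely Cnp, Gsn, Mag and Mog. Among all 27025 genes of the table, 17.9% had it, and 16.1% of all 32851 windows of that length held it. The STAT motif TTCNNNGAA, on both strands, was in none of these 3 windows and in 7.02% of all windows. It was in 1 of the 11 myelin list genes (9.09%), against 8.13% of all genes. Of 26 homeostatic astrocyte list genes found in the table, 5 had TTCNNNGAA (19.2%) and 3 had CTGGNAC (11.5%). A match describes letters only and not a bound site.

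Gfap (ENSMUSG00000020932, chromosome 11) ranged from 13.5 to 255.3 CPM over the series, with a median of 50.9. In generation 21 it ran from 13.5 to 42.3 CPM (median 35.9) in the low group and from 72.94 to 255.3 (median 86) in the high group. In generation 22 the low group spanned 17.8 to 39.9 CPM (median 32.6) and the high group 65.8 to 153.7 (median 81). In generation 23 these ranges were 19.4 to 38.8 CPM (median 33.2) and 60.3 to 116.7 (median 69.3). The groups cannot overlap within a generation, because the rule separates them. The ratio of medians was 2.4, 2.49 and 2.09 in the 3 generations and 2.44 overall. Between the middle groups it was 1.28.

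The rule cut a continuous range. Just outside the low group the next libraries had 42.9, 40.2 and 39.4 CPM in generations 21, 22 and 23. Just outside the high group the nearest had 72.91, 65.28 and 59.68 CPM. The precision of Gfap was not limited by counting, since the fewest Gfap reads in any library were 571.

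**Figure D1:**
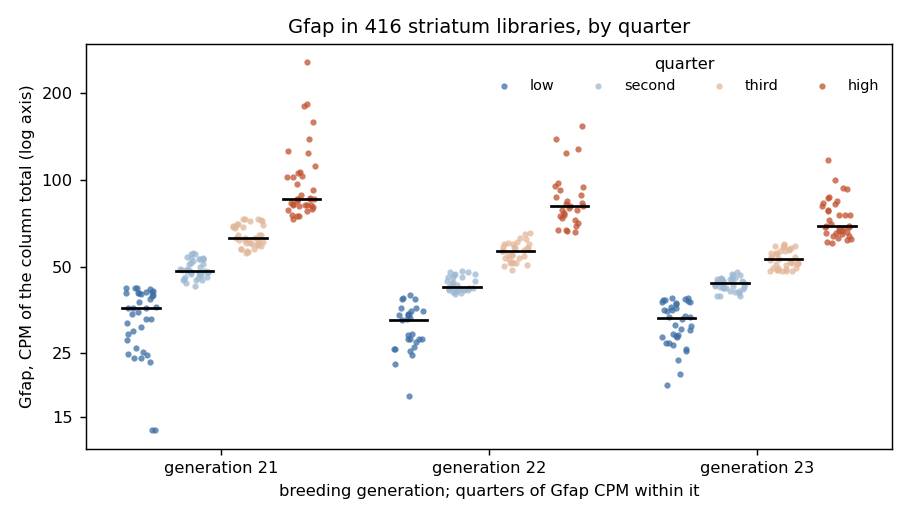
Gfap in CPM of the column total (log axis) for each of the 416 libraries, by breeding generation and Gfap group. Black lines are medians, and the low and high groups have medians of 35.9 and 86 CPM in generation 21, 32.6 and 81 in generation 22, and 33.2 and 69.3 in generation 23.

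Several libraries of the high group stood apart from the rest in their tissue markers. The highest Gfap of all, 255.3 CPM, was in male replicate 36 of generation 21, which also had the most Mbp RNA of both groups (4366 CPM, against a series median of 1634). Female replicate 34 of generation 21 had the next highest Gfap but 1.54 CPM of Drd1, the D1 dopamine receptor of spiny projection neurons, whose series median was 309.5. The same library had 294.3 CPM of Slc17a6, a marker of thalamic neurons. Male replicate 26 of generation 21 had 179.8 CPM of Gfap and 13990 CPM of Ttr, the transthyretin gene of choroid plexus. In male replicate 29 of generation 22, Gfap was 128.3 CPM, Drd1 59.9 and Slc17a7, a glutamate transporter gene of cortical neurons, 642.

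Libraries with Drd1 under 0.5 of the series median numbered 4 in the high group and 0 in the low group, with 2 and 1 in the upper and lower middle groups. Libraries of low total or low correlation numbered 12 in the high and 4 in the low group. The lowest totals of the high and low groups were 23278013 and 30277631. Both exceeded 0.5 of the series median, so these 12 and 4 libraries had low correlation. Libraries high in a choroid plexus, ependymal, thalamic or hippocampal score numbered 35 and 24. Xist lay against the labelled sex in 8 high and 5 low libraries. Counts of called genes without these libraries are given below for all genes and for part of the lists. Total counts over the series ran from 20331737 to 77458200 (median 43516282). They averaged 44860000 ± 7782000 (SD) in the high and 43400000 ± 5959000 (SD) in the low group (permutation test within generation, two-sided, adjusted p = 0.128). The mitochondrial share was 4.51% ± 0.512 in the high and 4.65% ± 0.539 in the low group (SD; adjusted p = 0.106 by the same permutation test).

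Across 21377 genes other than Gfap, 7742 (36.2%) differed between the groups at an adjusted p under 0.05 in edgeR's quasi-likelihood test with Benjamini-Hochberg adjustment. Of these, 4464 (20.9% of all tested) were higher and 3278 (15.3%) lower in the high group. These shares are the background against which each list count below is to be read. Most differences were small: the median absolute log2 difference of the called genes was 0.13, and 1466 genes (6.86%) passed with a fold above 1.2, 6.01% higher and 0.847% lower. The median over all tested genes was 0.01. Not 1 gene had groups without overlap, so each difference below is a shift of broad, overlapping ranges. Without the libraries high in other tissue scores, 4079 genes were called (19.1%; 10.1% higher and 9.02% lower). Without those of low total or low correlation, 5539 were called (25.9%; 13.5% higher and 12.4% lower).

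Genes of myelin and of mature oligodendrocytes, the cells that wrap axons, were higher as a whole list. All 16 tested members were called higher and none lower, against 20.9% and 15.3% of all genes, with a median log2 difference of 0.50 against 0.01 over all genes. Mbp, a main protein of compact myelin, ran from 1004 to 2219 CPM (median 1441) in the low group and from 968.7 to 4366 (median 1975) in the high group. It differed by 0.50 ± 0.04 on the log2 scale (SE), a fold of 1.42 (edgeR adjusted p = 6.8e-25). The ranges overlapped, but 93.1% of high libraries lay above the median of the low group.

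Mbp and Mog were chosen after their values were seen, as were Drd1, Drd2, Ppp1r1b, Tbr1, Ttr, Pdgfra, Cspg4 and Vcan below. Cnp, an enzyme of the myelin sheath, ran from 125.9 to 263.1 CPM (median 179.1) in the low and from 133.4 to 542.1 (median 251.1) in the high group. It differed by 0.48 ± 0.04 (log2, SE; edgeR adjusted p = 4e-27), with 97.1% of high libraries above the low median. Mag, an adhesion protein of the inner myelin wrap, was 1.45-fold higher, with medians of 94.8 and 136.2 CPM. Myrf, which encodes the factor named with the sequences above, ran from 35.3 to 72.8 CPM (median 49.8) in the low and from 35.9 to 147.1 (median 66) in the high group. Its fold was 1.4, close to those of Mbp, Cnp and Fa2h (1.43), a lipid hydroxylase of myelin.

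The summed CPM of the list ran from 2855 to 6395 (median 4078) in the low group and from 2887 to 12540 (median 5610) in the high group, and neither of the defining oligodendrocyte markers Mbp and Mog was at 0 in any library. All 16 members were also called without the libraries high in other tissue scores (median 0.47) and without those of low total or correlation (median 0.51). In bulk tissue, fewer cells of a type and less RNA per cell cannot be told apart. The smallest p of all genes that met the naming rule belonged to Gpr37. This receptor gene of differentiating oligodendrocytes ran from 42.3 to 78.4 CPM (median 58.5) in the low and from 55.4 to 175.1 (median 78.7) in the high group (log2 difference 0.47 ± 0.03, edgeR adjusted p = 6.9e-29).

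Of 8 tested genes of oligodendrocyte precursors and newly formed oligodendrocytes, 7 were higher and none lower, with a median of 0.20. C1ql1, Neu4 and Gpr17, also called, had 0.24, 0.22 and 0.18. Enpp6, a marker of newly formed oligodendrocytes, differed by 0.56 ± 0.05 (log2, SE) and Bcas1, of early myelinating cells, by 0.47 ± 0.04. Pdgfra and Cspg4, which mark dividing precursors, were called at 0.08 and 0.10, and Vcan, a matrix proteoglycan, had a value of -0.08 that did not pass. Cholesterol is a main lipid of myelin, and 15 of 17 genes of its synthesis were higher and none lower, with a median of 0.13. Dhcr7, the last step to cholesterol, had medians of 16.4 CPM in the low and 19.2 in the high group, and Insig1, which restrains the pathway when sterols are plentiful, 37.2 and 41.7. Without the libraries high in other tissue scores 9 of the 17 were called, and in generation 23 alone 0 by edgeR.

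**Figure D2:**
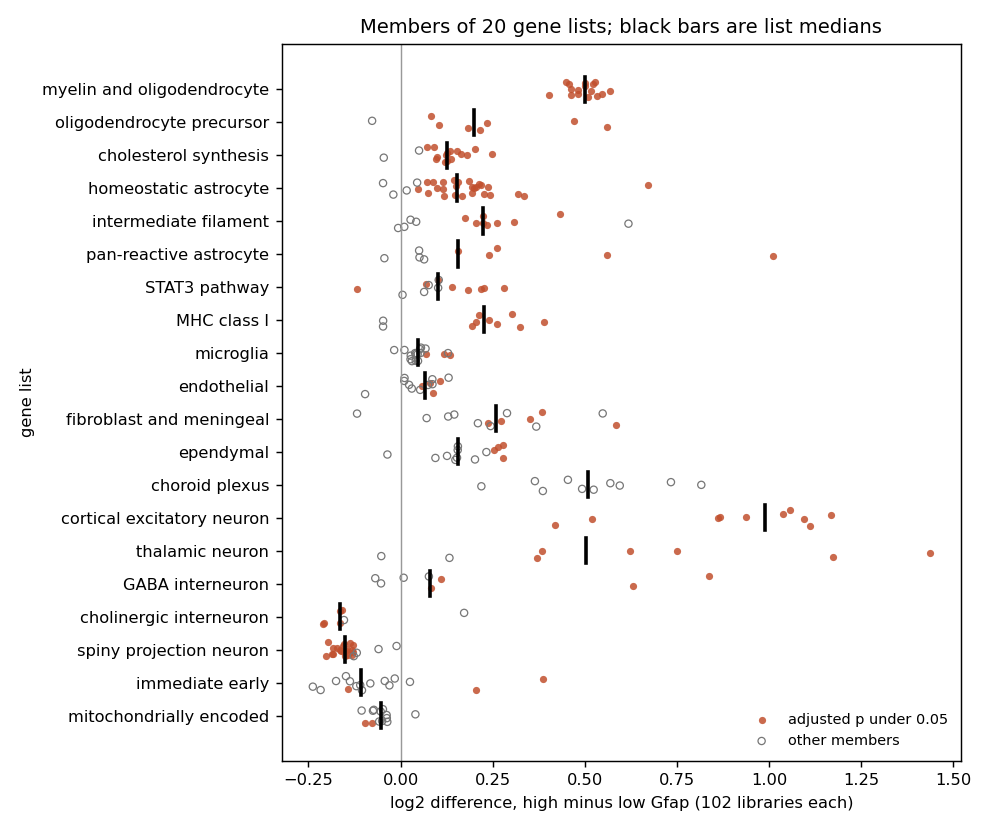
Log2 difference between the high and low Gfap groups (horizontal axis) for each tested member of 20 gene lists (vertical axis). Filled points passed an adjusted p under 0.05, open points did not, and black bars are list medians, which are 0.50 for myelin, 0.15 for homeostatic astrocyte and -0.15 for spiny projection neuron genes.

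Genes that mark resting astrocytes were mostly higher, by less than the myelin genes. Of 30 tested members, 26 were higher, none lower and 4 did not pass, with a median of 0.15. Aqp4, the water channel of astrocyte end-feet, ran from 31.8 to 68 CPM (median 50.6) in the low and from 33.5 to 141.3 (median 63) in the high group. It differed by 0.33 ± 0.04 on the log2 scale (SE; edgeR adjusted p = 7.8e-15), and 84.3% of high libraries lay above the low median.

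Atp1b2, a sodium pump subunit of astrocytes, ran from 172.5 to 279.3 CPM (median 202.2) in the low and from 195.7 to 701.3 (median 231.6) in the high group, with 99% of high libraries above the low median. Hepacam, an adhesion protein of astrocyte contacts, had medians of 57.8 and 65.4 CPM. Gja1, which encodes the gap junction protein connexin 43, had medians of 153.1 and 173.1 CPM, a fold of 1.15. Agt, the angiotensinogen gene, had the largest difference in the list (0.67 ± 0.09), with ranges of 1.13 to 13.1 CPM (median 3.88) and 2.58 to 71.2 (median 5.4).

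Genes of glutamate uptake differed little. Slc1a2, the main glutamate transporter, had medians of 3686 and 3743 CPM and a fold of 1.03 (log2 difference 0.05 ± 0.02, edgeR adjusted p = 0.040), and Slc1a3, the other astrocyte glutamate transporter, a fold of 1.05. Glul, glutamine synthetase, had a fold of 1.11 and Aldh1l1, a folate enzyme used as a pan-astrocyte marker, 1.14. The members that did not pass were Slc4a4 (-0.05), Mfge8 (-0.02), Ntrk2 (0.02) and Gpc5 (0.05). The summed CPM of the list ran from 7693 to 10050 (median 8882) in the low and from 8425 to 12300 (median 9384) in the high group. Without the libraries high in other tissue scores, 22 of 30 members were called higher, and without those of low total or correlation 24.

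Intermediate filament genes, the family of Gfap, showed 8 of 13 tested members higher and none lower, with a median of 0.22. Vim, vimentin, which assembles with Gfap in reactive and immature astrocytes, ran from 7.68 to 24.5 CPM (median 15.2) in the low and from 11.3 to 35.9 (median 18) in the high group (0.26 ± 0.04, edgeR adjusted p = 6.2e-09). Synm, synemin, another partner, had medians of 31.6 and 38.5 CPM and a difference of 0.31 ± 0.04. Nes, nestin, of neural progenitors and reactive astrocytes, did not pass, with medians of 11.1 and 11.5 CPM. The higher members also included the neuronal filament genes Nefl, Nefm, Nefh and Ina (0.22, 0.22, 0.43 and 0.18). Nefl had medians of 168.4 and 193.3 CPM. Of the nuclear lamin genes, Lmna was higher (0.23 ± 0.05, edgeR adjusted p = 6.3e-05). Lmnb1 and Lmnb2 and the linker gene Plec did not pass (0.01, 0.03 and -0.01). Without the libraries high in other tissue scores 5 members were called.

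Of 9 tested genes that rise in reactive astrocytes of several injury models, 5 were higher, none lower and 4 did not pass, with a median of 0.16. Aspg had a difference of 1.01 ± 0.14, but its level was low, from 0.0277 to 0.81 CPM (median 0.2) in the low and from 0.0248 to 4.26 (median 0.435) in the high group. Serpina3n, a protease inhibitor, ran from 1.15 to 22.1 CPM (median 2.85) and from 1.31 to 72 (median 3.76), and its difference of 0.56 ± 0.18 came with an edgeR adjusted p of 0.0079. Cd44, the hyaluronan receptor (0.24 ± 0.05), Cp, ceruloplasmin (0.16 ± 0.04), and Vim, which this list shares with the filament list, were also higher. Timp1, Osmr, Hspb1 and S1pr3 did not pass, with values of -0.04, 0.06, 0.05 and 0.05. Of the 9 genes, 3 were called higher without the libraries high in other tissue scores.

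The set known from astrocytes in neuroinflammation had 6 of 12 members higher and 1, Fkbp5, lower, with a median of 0.18. The set known from ischaemia had 5 of 11 higher and none lower, with a median of 0.19. When the libraries high in other tissue scores were left out, the first set had 5 higher and 2 lower. The second then had 3 higher and none lower. C3, the central complement component, ran from 0.055 to 12.5 CPM (median 0.861) in the low and from 0.185 to 36.9 (median 1.74) in the high group (0.91 ± 0.22, edgeR adjusted p = 3.3e-04). Gbp2, an interferon-induced GTPase, had medians of 2.02 and 2.54 CPM. Cd109, a membrane protein of the second set, had medians of 1.83 and 2.42 CPM and a difference of 0.52 ± 0.09. Ptgs2, cyclooxygenase, differed by 0.48 ± 0.13, although forebrain neurons also express it. Of 5 tested genes of white matter and brain surface astrocytes 4 were higher (median 0.26). Among them Tnc, a matrix glycoprotein, ran from 0.665 to 7.85 CPM (median 4.66) in the low and from 2.48 to 29.7 (median 6.88) in the high group.

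Genes of the cytokine pathway that acts on Gfap through STAT3 showed 7 of 13 members higher and 1 lower, with a median of 0.10. Of the 5 receptor genes, Il6st, Lifr and Cntfr (0.07 ± 0.02) were called, and Osmr (0.06) and Il6ra (0.08) did not pass. Il6st, the shared receptor gp130, had medians of 92.4 and 102.8 CPM (0.18 ± 0.02, edgeR adjusted p = 4.3e-14), and Lifr, its partner for leukaemia inhibitory factor, 57 and 65.3 (0.23 ± 0.03). Stat3 itself had medians of 34.1 and 35.8 CPM, a fold of 1.07. Socs3, a feedback inhibitor and target of the pathway, differed by 0.28 ± 0.08 at under 1 CPM in both medians, while the kinase gene Jak2 was lower (-0.12 ± 0.03) and Jak1 did not pass (0.01). Of the ligand genes, Lif and Cntf did not pass (0.10 each), and Il6 was below the filter. When the libraries high in other tissue scores were left out, 4 of the 13 members were higher and 1 lower.

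Of 13 genes of transcription factors of astrocytes, 7 were higher and 2 lower. Nfix, of the nuclear factor I family that drives astrocyte differentiation and binds the Gfap promoter, ran from 56 to 154.5 CPM (median 71.5) in the low and from 70.3 to 212.1 (median 94.2) in the high group, and 99% of high libraries lay above the low median (0.41 ± 0.05, edgeR adjusted p = 1e-13). Its relative Nfia had medians of 79.5 and 90.1 CPM. Sox2, of neural stem cells and astrocytes, had medians of 32.1 and 35.1 CPM, and Id3, a target of BMP signals, 9.49 and 12.1. Notch pathway genes mostly did not pass: 3 of 14 were higher, 1 lower, and the list median was -0.03.

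Genes of immune function were called in part. MHC class I genes, which display peptides on all cells, were higher for 8 of 10 members and lower for none, with a median of 0.23. This count was 5 of 10 without the libraries high in other tissue scores. B2m, the light chain, had medians of 18 and 20.3 CPM, and H2-K1 4.56 and 5.72. Of 15 complement genes 5 were higher and none lower, with a median of 0.05. The largest in level was C4b, which ran from 7.81 to 65.6 CPM (median 27.8) in the low and from 17.8 to 110.3 (median 44.8) in the high group (0.63 ± 0.07, edgeR adjusted p = 3.5e-15). Microglia genes were higher for 3 of 18 members and lower for none (median 0.05), among them Selplg, with medians of 13.3 and 14 CPM. The defining microglia genes Cx3cr1, P2ry12 and Tmem119 had medians of 32.7, 28.8 and 9.84 CPM in the low and 35.1, 30.6 and 10.4 in the high group. Of 8 tested genes of activated microglia 4 were higher, including Gpnmb and Spp1, both under 2 CPM in either median. Interferon-stimulated genes were higher for 5 of 14 members (median 0.15). Among all genes tested, 20.9% were higher and 15.3% lower.

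Of 12 genes that respond to glucocorticoid hormones, 6 were higher and 1 lower, with a median of 0.11. When the libraries high in other tissue scores were left out, 1 was higher and 1 lower. Pdk4, a kinase that limits glucose oxidation, had medians of 13.9 and 16.6 CPM, and Tsc22d3, a direct glucocorticoid target, 32.7 and 36. The lower member was Fkbp5 (-0.10 ± 0.03, edgeR adjusted p = 0.0029). It is also the lower member of the neuroinflammation set above. Per1 (-0.11) and Klf9 (-0.03) did not pass. Immediate early genes, which follow neuronal activity, were higher for 2 of 16 members (Ier2 and Jun) and lower for 1 (Egr3). Their median was -0.11, and 3 of the 16 had a positive value. Heat shock genes were lower for 1 of 10 (median 0.01). Mitochondrially encoded genes were lower for 2 of 13 (median -0.05). Ribosomal protein genes were higher for 12 and lower for 1 of 80 (median 0.02). Over all genes 20.9% were higher and 15.3% lower.

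Genes of the main striatal neurons were lower. Of 24 tested genes of spiny projection neurons, 20 were lower, none higher and 4 did not pass, with a median of -0.15. Foxp1, a transcription factor of these cells, ran from 377.1 to 668 CPM (median 574) in the low and from 33 to 643 (median 499) in the high group, and 10.8% of high libraries lay above the low median (-0.20 ± 0.04, edgeR adjusted p = 2e-05). Arpp21, a dopamine-regulated phosphoprotein, ran from 977.2 to 1775 CPM (median 1496) and from 154.2 to 1632 (median 1322). Gnal, the G protein subunit that couples the D1 and adenosine receptors to cyclase, had medians of 785 and 695 CPM.

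Drd1 ran from 185.5 to 405.8 CPM (median 325.04) in the low and from 1.54 to 360.8 (median 290.9) in the high group, and 15.7% of high libraries lay above the low median (-0.18 ± 0.05, edgeR adjusted p = 0.0032). Drd2, the D2 receptor, did not pass (-0.13 ± 0.06, edgeR adjusted p = 0.060), with medians of 130.7 and 121.4 CPM. Ppp1r1b, which encodes DARPP-32, was lower by a narrow margin (-0.13 ± 0.05, edgeR adjusted p = 0.046). Without the libraries of low total or correlation, 17 members were lower and the list median was -0.10. The libraries left out include the 4 of the high group with Drd1 under 0.5 of the median. Without those high in other tissue scores 13 were lower (median -0.09).

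Cholinergic interneuron genes were lower for 5 of 7 members and higher for none (median -0.16). Chat, the enzyme that makes acetylcholine, had medians of 11.2 and 9.97 CPM, and Slc5a7, the choline transporter, 31.6 and 27.1. Without the libraries of low total or correlation 2 of the 7 were lower. GABA interneuron genes were higher for 4 of 8 and lower for none (median 0.08). Only 1 of the 8 was higher without the libraries high in other tissue scores.

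The 12 largest differences among lower genes that met the naming rule were small in fold, at most 1.32. Myo3b, a myosin, ran from 5.83 to 35.2 CPM (median 16.3) in the low and from 0.823 to 30.9 (median 11.7) in the high group (-0.40 ± 0.09). Calb1, the calcium buffer calbindin, abundant in spiny neurons of the striatal matrix, ran from 75 to 226.9 CPM (median 134.7) and from 28.9 to 174.4 (median 102.3), and 17.6% of high libraries lay above the low median (-0.36 ± 0.05, edgeR adjusted p = 1.1e-08). Pbx3, a homeobox gene (-0.31 ± 0.05), the forkhead gene Foxo1 (-0.24 ± 0.04) and the protocadherin gene Pcdh17 (-0.26 ± 0.04) were also lower.

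Lists of neurons of neighbouring tissue differed in their counts. All 10 cortical excitatory neuron genes were called higher, with a median of 0.99, and 6 of 8 thalamic neuron genes were higher and none lower (median 0.50). Of 6 septal and pallidal neuron genes 2 were higher and 1 lower (median 0.08), and without the libraries of low total or correlation 0 were higher and 1 lower by edgeR's test. Slc17a7 ran from 2.14 to 459 CPM (median 17.6) in the low and from 2.56 to 642 (median 58.3) in the high group (1.17 ± 0.26, edgeR adjusted p = 1.6e-04). Tbr1, a transcription factor of deep cortical layers, ran from 0.551 to 110.7 CPM (median 4.21) and from 0.546 to 117.4 (median 15.5). The ranges almost coincided, and 73.5% of high libraries lay above the low median.

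The summed CPM of the cortical list ran from 27.4 to 1135 (median 66.6) in the low and from 28.9 to 1265 (median 170.5) in the high group. Without the libraries high in other tissue scores, none of which was chosen on the cortical list, 3 of the 10 were called (median 0.55). Prkcd, a kinase of thalamic relay neurons, had nearly equal medians of 4.77 and 5.4 CPM, while its highest values were 68.4 and 1369 (1.17 ± 0.22), and 70.6% of high libraries lay above the low median. Without the libraries of low total or correlation 2 of the 8 thalamic genes were called. Slc17a6, a glutamate transporter gene of thalamic neurons, had medians of 0.544 and 1.46 CPM and was at 0 in 1 high library. Of 5 hippocampal genes 4 were higher, and 1 was without the libraries of low total or correlation (median -0.11).

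Choroid plexus genes, of the tissue that secretes cerebrospinal fluid, had a median of 0.51, but none of the 10 passed. Ttr ran from 0.647 to 5096 CPM (median 6.54) in the low and from 1.09 to 13990 (median 12.1) in the high group (0.49 ± 0.52, edgeR adjusted p = 0.49). Ependymal genes, of the ventricle lining, were higher for 4 of 13 members and lower for none (median 0.16). Their summed CPM ran from 31 to 118.4 (median 58.5) in the low and from 15.8 to 210.3 (median 60.6) in the high group, and the defining gene Tmem212 was at 0 in 1 low library. Thbs4, thrombospondin-4, a gene of astrocytes and of the neurogenic niche, was higher (0.73 ± 0.13), with medians of 13 and 20 CPM, as were 3 other niche genes of 12. Fibroblast and meningeal genes were higher for 5 of 14 (median 0.26), endothelial genes for 4 of 14 (median 0.07), mural cell genes for 4 of 11 (median 0.09) and blood genes for 2 of 5 (median 0.24), with none lower. For all genes tested the shares were 20.9% higher and 15.3% lower. The summed fibroblast CPM had medians of 90.02 and 108.9 in the low and high groups. Of the 14 fibroblast genes, 2 were higher without the libraries of low total or correlation. Without those high in other tissue scores 6 were. The part of these tissues in the astrocyte and reactive gene differences was not tested beyond the fit with marker scores that follows.

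**Figure D3:**
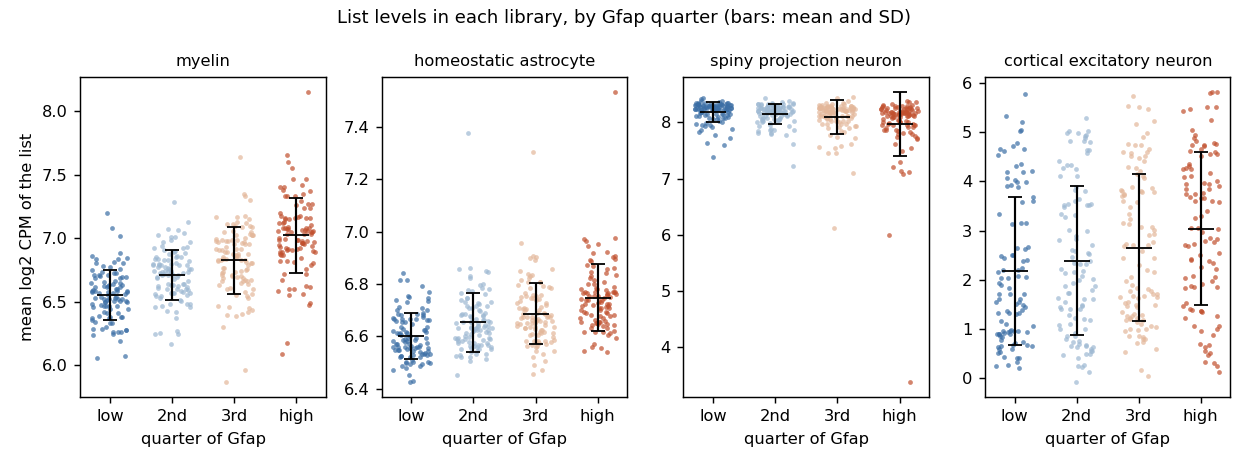
Mean log2 CPM of 4 gene lists (vertical axes) in each of the 416 libraries, by Gfap group, with bars for mean and SD. From the low over the middle to the high group the means were 6.55, 6.71, 6.83 and 7.02 for myelin, 6.60, 6.65, 6.69 and 6.75 for astrocyte, 8.18, 8.15, 8.09 and 7.98 for spiny neuron and 2.18, 2.38, 2.65 and 3.04 for cortical genes.

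When the levels of the ependymal, choroid plexus, myelin, fibroblast and cortical lists entered the fit as 5 covariates, far fewer genes differed. Then 1.44% of genes were called, 1.28% higher and 0.159% (34 genes) lower, and all but 36 of them had been called without the scores. The medians of the myelin and cortical lists, which the covariates hold, were 0.00 and 0.06 by construction. Of the 30 homeostatic astrocyte genes, 7 were higher and none lower, with a median of 0.09. Aqp4 kept a difference of 0.28 ± 0.05 (edgeR adjusted p = 1.6e-04), Gja1 0.17 ± 0.03 and Atp1b2 0.16 ± 0.03, while Hepacam (0.07), Aldh1l1 (0.07) and Glul (0.10) did not pass.

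Among the genes of the Gfap family and of reactivity, Vim (0.17 ± 0.04, edgeR adjusted p = 0.0090), Cd109 (0.56 ± 0.10), Ptgs2 (0.42 ± 0.10), C4b (0.37 ± 0.09) and Gpnmb (0.77 ± 0.14) passed with the scores. Synm (0.06), Cd44 (0.06), Serpina3n (0.64 ± 0.23), Aspg (0.35 ± 0.15) and C3 (0.79 ± 0.28) did not. Of the pathway and transcription factor genes, Lifr (0.13 ± 0.03), Nfix (0.19 ± 0.04), Nfib (0.17) and Notch1 (0.10) passed, and Il6st (0.05), Stat3 (-0.0036) and Socs3 (0.07) did not. No gene of the spiny neuron list passed, and its median was -0.09. The scores were measured in the same libraries as Gfap, so the fit does not divide the differences among cell types.

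The 5 genes with the smallest p in the fit with scores, chosen after their values were seen, were Nbl1, Lct, Neurod1, Fat4 and Slc14a1. Slc14a1, the urea transporter, which astrocytes express, ran from 4.5 to 10.8 CPM (median 7.32) in the low and from 6.11 to 28.5 (median 9.99) in the high group, with values of 0.49 ± 0.05 without and 0.40 ± 0.07 with the scores. Nbl1, a BMP antagonist, had 0.35 and 0.36, and Fat4, an atypical cadherin, 0.22 and 0.36. Lct, lactase, and Neurod1, a neuronal transcription factor, had medians of 0.262 and 0.33 CPM and highest values of 33.3 and 18.4 CPM in the high group.

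**Figure D4:**
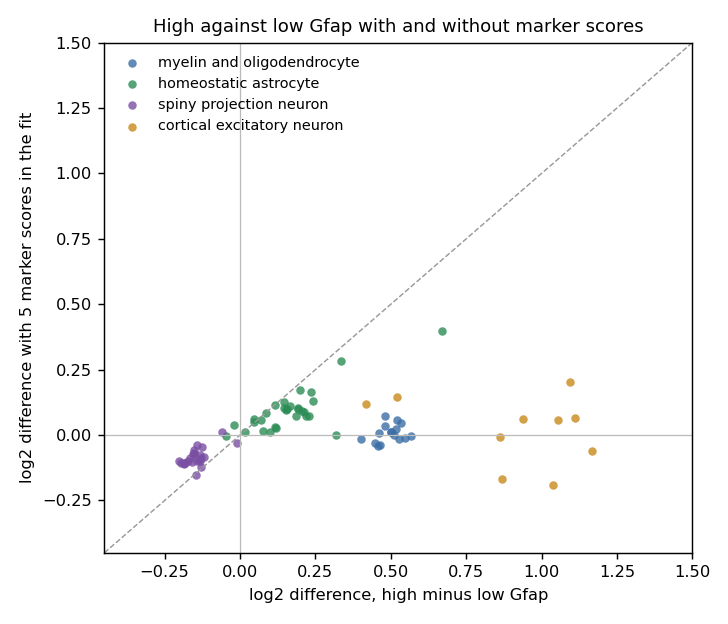
Log2 difference between high and low Gfap without (horizontal axis) and with (vertical axis) 5 marker scores in the fit, for the genes of 4 lists. The dashed line marks equal values. Myelin and cortical points, which the scores hold, lie near 0 on the vertical axis, and the astrocyte median is 0.15 without and 0.09 with the scores.

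Among higher genes, the largest differences by the naming rule were mixed in known function. Ccn3, a matricellular protein of cortical neurons, had 0.94 ± 0.20, with medians of 2.03 and 4.48 CPM. Adra2a, the alpha-2A adrenergic receptor, ran from 0.738 to 6.63 CPM (median 1.56) in the low and from 0.573 to 9.34 (median 2.96) in the high group (0.74 ± 0.11, edgeR adjusted p = 9.1e-09). Rprm had 0.74 ± 0.14, and Klk6, a protease of oligodendrocytes, 0.67 ± 0.11. With the marker scores none of these 4 passed (0.27, 0.19, 0.02 and 0.27). Olfml2b, an extracellular matrix gene, did (0.61 ± 0.09 without and 0.55 ± 0.09 with them).

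The middle groups, whose libraries entered neither group, gave a comparison over other animals with a smaller step in Gfap. There 4 genes (0.0187%) were called by edgeR's test, 3 higher (0.014%) and 1 lower (0.00468%), and 1822 (8.52%) had an unadjusted p under 0.05, 1028 higher (4.81%) and 794 lower (3.71%) in the upper middle group. Of the 16 myelin genes, 15 were higher at an unadjusted p under 0.05, with a list median of 0.13. Cnp differed by 0.12 (unadjusted p = 1.5e-04), Mag by 0.13 and Myrf by 0.12. Of the 30 homeostatic astrocyte genes, 8 were higher by the same rule and none lower, with a median of 0.03, among them Aqp4 (0.10, unadjusted p = 0.0028), Atp1b2 (0.07) and Hepacam (0.07). Serpina3n (0.56) and Aspg (0.36) of the reactive genes were higher by that rule. Spiny neuron genes had 3 lower of 24 and a median of -0.05.

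Lists with no gene past an unadjusted p under 0.05 between the middle groups included the cortical list, with a median of 0.22, the STAT3 list (0.02) and the MHC class I list (-0.01). The genes called there, named after their values were seen, were Igfbp5 (0.19 ± 0.04), Necap2 (0.08 ± 0.02), Sfmbt2 and, lower, Gm15501. Igfbp5, which binds insulin-like growth factors, ran from 68.5 to 187.5 CPM (median 120.5) in the low and from 97.6 to 398.2 (median 163.4) in the high group and differed by 0.51 ± 0.04 there (edgeR adjusted p = 1e-21). Of the 7742 genes called between high and low, 6591 (85.1%) had the same sign between the middle groups, as did 61.01% of the 13635 genes not called. The naming rule itself required that sign, so its genes add nothing to this count.

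The size of the differences varied with breeding generation. Taken alone, generation 21 gave 5702 called genes (26.7%; 15.6% higher and 11.1% lower). Generation 22 gave 4311 (20.2%; 11.9% higher and 8.29% lower) and generation 23 gave 557 (2.61%; 2.27% higher and 0.337% lower). A test of Gfap group by generation was called for 1711 genes (8%). Over the 4464 higher genes the median log2 differences were 0.22, 0.17 and 0.08 in generations 21, 22 and 23. The ratio of Gfap medians was also lowest in generation 23, and the part of that smaller step in these values was not tested.

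All 16 myelin genes were called in each generation alone, with list medians of 0.70, 0.47 and 0.33, and 11 of the 16 were called in the test by generation. Myrf differed by 0.73, 0.37 and 0.31 (interaction adjusted p = 4.0e-04, edgeR) and Mbp by 0.72, 0.44 and 0.31. Among homeostatic astrocyte genes 22, 14 and 8 were called, with medians of 0.22, 0.12 and 0.09, and 2 of 30 were called in the test by generation. Aldh1l1 differed by 0.28, 0.24 and 0.04 (interaction adjusted p = 0.0082), whereas Gja1 had 0.20, 0.21 and 0.18 and Aqp4 0.25, 0.40 and 0.37, with no interaction call.

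Cortical genes had medians of 1.08, 1.79 and 0.13, and 9, 10 and 0 of the 10 were called in generations 21, 22 and 23. Prkcd differed by 2.60, 0.50 and 0.12 (interaction adjusted p = 3.7e-04). Spiny neuron genes were called for 6, 17 and 0 of 24, and none had an interaction call. Serpina3n differed by 0.40, 1.74 and -0.18 (edgeR interaction adjusted p = 0.0045) and Aspg by 1.71, 1.08 and 0.32. Ptgs2 differed by 0.23, 1.33 and 0.0043 (edgeR interaction adjusted p = 0.0045), so its difference was largest in generation 22. C3 had 0.87, 0.85 and 1.0 with no interaction call. The smallest interaction p belonged to Gprc5b, Rsrc2, Mindy1, Cops2 and Arhgap23. Gprc5b, a receptor of glia, differed by 0.55, 0.30 and 0.20, and Cops2, a signalosome subunit, by -0.13, 0.09 and -0.01.

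**Figure D5:**
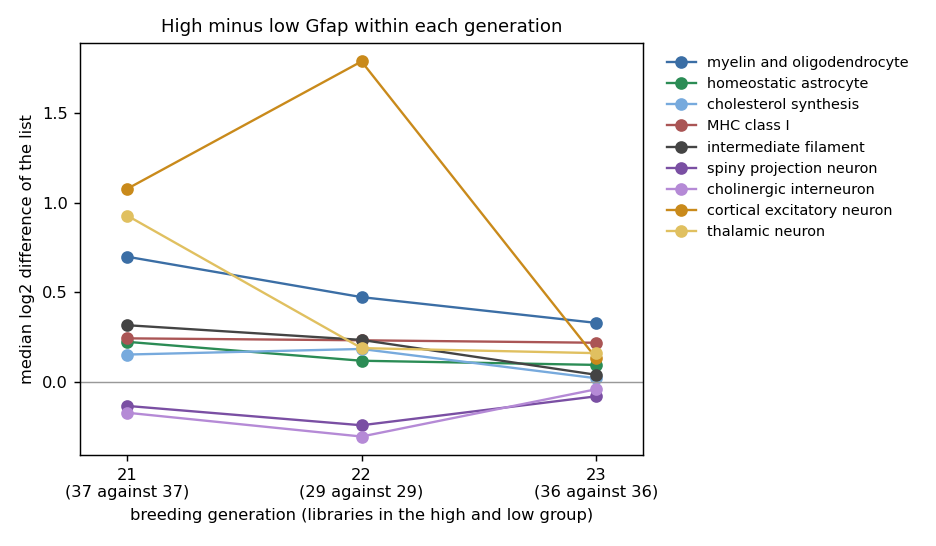
Median log2 difference between high and low Gfap (vertical axis) of 9 gene lists within each breeding generation (horizontal axis). The myelin medians are 0.70, 0.47 and 0.33, and the cortical medians 1.08, 1.79 and 0.13.

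The test of Gfap group by labelled sex called 0 genes (0%) with edgeR, and 883 genes (4.13%) had an unadjusted p under 0.05. Without the libraries whose Xist lay against the label it also called 0. All 16 myelin genes were called higher in libraries labelled female and in libraries labelled male alone, with medians of 0.48 and 0.50, and 19 and 22 of the 30 astrocyte genes were. Spiny neuron genes were lower for 6 and 14 of 24.

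Among the 20 tested protein-coding genes nearest to Gfap on chromosome 11, 5 were higher and none lower, with a median of 0.04, where 20.9% of all genes were higher. The 5 were Adam11, Fam187a, C1ql1, Plcd3 and Hexim1. Fam187a, named after its values were seen and the nearest tested gene on 1 side, differed by 0.70 ± 0.12 at no more than 1.2 CPM in any library of either group. With the marker scores 0 of the 20 were called. C1ql1 is also a member of the precursor list and differed by 0.24.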

How the data were processed

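Striatum RNA of 416 J:DO mice was measured, 1 library per animal number in the titles. Per the labels' protocols, tissue was taken in a morning window into RNAlater, and stranded libraries were made from ribosome-depleted RNA. The authors deposited estimated counts per gene (23.8% of values were not whole). The aligner, counter and genome build are not given in the sources used here. Counts were rounded, which moved 0.00502% of the total. GENCODE M21 names matched 46005 of 46517 gene IDs (98.9%).

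Groups were the top and bottom 0.25 of Gfap CPM within generation. Genes passing filterByExpr (minimum count 10) were tested with edgeR 4.0.16 in R 4.3.3 (TMM factors, quasi-likelihood test, generation as covariate, Benjamini-Hochberg adjustment over 21377 genes, threshold 0.05). Gfap was left out. Gfap and Xist levels are CPM of the column total. Levels of other genes and of lists are CPM of the column total scaled by its TMM factor. Log2 differences are high minus low, with SE. Library measures used 100000 two-sided permutations within generation. Scripts were tested on simulated data. The members and gene lists were chosen with earlier results of these data known.

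Named genes were the 12 largest differences per direction and the 10 smallest p among called genes with 1 sign in all 3 generations and between the middle groups (unadjusted p under 0.05), all tested filament, pan-reactive, STAT3 and homeostatic astrocyte genes, up to 4 called genes of each other list, and the 5 smallest p of an interaction test with calls. Libraries of low total had under 0.5 of the median total, those of low correlation lay over 4 scaled median absolute deviations below the median, those high in another tissue were in the top 0.1 of a score, and Xist was read against the label at 100 CPM. Alternatives included DESeq2 1.42.0, limma 3.58.1 (voom), RLE factors, other filters, covariates and library sets. Promoters came from RefSeq.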

Additional observations from a re-analysis of the deposited data

Results flagged for a closer look

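The Gfap group difference varied with breeding generation, by edgeR's test of group by generation, for 1711 genes, and the genes below drew attention for that reason. Adjusted p was 0.000359 for Gprc5b, Rsrc2, Mindy1, Cops2 and Arhgap23, 0.000372 for Prkcd, and 0.000404 for Myrf and Lct. Among oligodendrocyte genes it was 0.000451 for Gpr37, 0.000529 for Bcas1, 0.000907 for Cnp, 0.00171 for Mag, 0.00285 for Mbp, 0.011 for Fa2h and 0.0122 for Mog. All 7 had their largest difference in generation 21 and their smallest in generation 23. Among astrocyte, reactive and cytokine receptor genes it was 0.00451 for Serpina3n, 0.00454 for Ptgs2, 0.0057 for Aspg, 0.00816 for Aldh1l1 and 0.0281 for Il6st. It was 0.00549 for Olfml2b, 0.0131 for Calb1, 0.0164 for Neurod1, 0.027 for Insig1 and 0.0401 for Dhcr7.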

How the results depend on the processing

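Depth did not limit Gfap, but genes under 1 CPM rest on few reads. The share of the 21377 genes that was called, 36.2%, became 1.44% with 5 marker scores, 20.2% in generation 22, 2.61% in generation 23, 18.8% and 21.6% in libraries labelled female and male, 1.43% in a test against a fold of 1.2 and 19.1% without libraries high in other tissue scores. Tests on subsets use fewer libraries, and the test against 1.2 asks for a larger difference; otherwise the cause was not tested. With RLE factors 51.5% of called genes were higher, against 57.7%. A check of settings covered 97 of the genes given in the text, of which 85 were called. All 85 kept their sign in the difference of mean log2 CPM within generation when each library was left out in turn. With 5 scores Mog (-0.016), Slc17a7 (-0.063) and Tbr1 (-0.19), whose lists are covariates there, lay around 0 by construction. Among the other genes of these 85, signs turned with 5 scores for Stat3 (-0.0036) and Insig1 (-0.0029). By generation they turned in 21 for Slc1a2 (-0.0078) and Lct (-0.16), in 22 for Rsrc2 (0.055), and in 23 for Serpina3n (-0.18). Called genes outside this check are not listed here, such as Tmem212 (0.25), which had -0.01 in generation 22. Of all 7742 called genes, 6750 (87.2%) did not change sign between generations 21, 22 and 23. Cops2, not called as reported (-0.02), was called with the other sign in generation 22 (0.090). The cause was not tested. No paired analysis was possible because the replicate numbers were given in accession order and only name a library.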
